A study of Homo sapiens with 10 samples.

Results

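The genes described here encode the acid interior of the cell: the vacuolar proton pump (V-ATPase), the hydrolases and membrane proteins of the lysosome, 2 transcription factors that activate lysosomal genes, and proteins of autophagy. The list held 38 genes of the 60623 gene IDs counted in each library, picked by gene symbol with earlier results of these data known. All 38 were found under their current symbols, and all 38 passed the filter on low counts. They comprised 17 V-ATPase genes, 9 hydrolases, 5 genes of the lysosomal membrane and of lipid export, 2 transcription factors (TFEB and TFE3) and 5 autophagy genes.

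Messenger RNA was measured by poly(A)-selected sequencing in the A375 line, human melanoma cells that carry an activating BRAF mutation. Cells received small interfering RNA (siRNA) against PHF10, a subunit of the PBAF chromatin remodelling complex, or against the transcription factor MYC, and were harvested at 72 h. Experiment 1 comprised 4 PHF10 knockdown libraries and 2 control libraries, and experiment 2 comprised 2 libraries labelled MYC knockdown (the MYC-labelled libraries) and 2 control libraries. All 4 groups were the same line with no other genotype or agent named. The controls are described as control siRNA in the protocol but as untreated in the sample field. Nothing in the labels tells whether replicates were separate cultures, so a p-value here measures the spread between these libraries, which may be technical.

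The V-ATPase is a rotary motor. Its cytosolic V1 sector hydrolyses ATP, and its membrane V0 sector carries protons into the lumen. The acid that it makes activates the cathepsins and glycosidases of the lysosome. TFEB and TFE3 are held in the cytosol when mTORC1, the nutrient-sensing kinase on the lysosome, is active, and otherwise enter the nucleus and activate lysosomal and autophagy genes. Autophagy delivers cytoplasmic cargo, bound by receptors such as SQSTM1 (p62), to the same lysosomes.

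Reads assigned to genes numbered 20.47 to 38.37 M per library. The spread between replicates differed between the experiments: the common biological coefficient of variation was 26.69% with experiment 1 fitted alone, 3.387% with experiment 2 alone and 21.44% with both together. PHF10 mRNA measured 15.05 to 17.96 CPM (gene counts scaled to a library of 1 M reads) in its knockdown against 36.6 and 40.1 CPM in the controls. MYC mRNA overlapped between the groups of experiment 2, with 16.7 and 13.3 CPM in the MYC-labelled libraries and 15.0 and 26.5 CPM in the controls (log2 change, the log2 of the fold change of knockdown over control, −0.46, edgeR adjusted p = 0.688). With experiment 1 fitted alone, MYC had a log2 change of −0.82 after PHF10 knockdown (SE 0.32, edgeR adjusted p = 0.28). With experiment 2 alone it had −0.43 in the MYC-labelled libraries (SE 0.42, 0.523). SOX10, a melanocyte lineage factor, stood at 528 to 948 CPM in every library, and the pigment genes MLANA and TYR were at or near 0. The melanocyte lineage list, with SOX10 a large part of each sum, summed to 640.5 to 826.5 CPM in the PHF10 knockdown against 959 and 1090 CPM in its controls. It summed to 1006 and 1020 CPM in the MYC-labelled libraries against 902 and 904 CPM in theirs, so the sum separated the groups of both experiments. The mean log2 CPM of the list went the other way in experiment 2, with 3.31 and 3.52 in the MYC-labelled libraries against 3.71 and 3.57 in their controls. With experiment 2 fitted alone SOX10 and S100A1 passed as higher, and MITF, PMEL and S100B as lower. Markers of leukocytes summed to 1.12 to 2.31 CPM over all libraries and those of fibroblasts to 22.3 to 76.5 CPM. Those of epithelium summed to 6.77 to 9.55 CPM in the PHF10 knockdown and 6.41 and 7.82 CPM in its controls, with EPCAM and CDH1 at or under 1.07 CPM in every library. A list of 32 type I interferon genes split experiment 1 across its groups: its mean log2 CPM was 7.68, 7.38, 3.30 and 4.73 in replicates 1 to 4 of the PHF10 knockdown, 8.06 and 4.59 in control replicates 1 and 2, and 2.87 to 3.10 in experiment 2. Endothelial markers, nearly all of it KDR, summed to 8.76 to 203 CPM in the PHF10 knockdown and 60.9 and 46.6 CPM in its controls, which overlapped, and PECAM1 and CDH5 stayed at or under 2.18 CPM in every library. The part of these markers in the results was not tested. In bulk RNA, fewer cells of a kind and less RNA per cell cannot be told apart.

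To ask which of these genes respond to loss of the PBAF subunit, the PHF10 knockdown libraries were set against the 2 controls of their experiment. ATP6V0A4, the tissue-restricted a4 subunit of the proton pump, rose 11.6-fold. The lysosomal protease CTSL, the cholesterol exporter NPC1 and the autophagy receptor SQSTM1 rose by 0.84, 0.64 and 0.79 on the log2 scale. Thus 4 of 38 genes rose and 0 fell at a Benjamini-Hochberg adjusted p under 0.05 (edgeR quasi-likelihood test over 18450 genes). Of all genes tested, 2.75% rose and 3.58% fell, 6.34% in either direction. At an unadjusted p under 0.05, 7 of the 38 were higher and 0 lower, as were 11.2% and 11.5% of all genes, and DESeq2 called 6 higher and 0 lower, where it called 11.8% of all genes in either direction. The median log2 change of the 38 was 0.15, against 0.02 over all genes tested, and 31 of them had a positive value, as had 52.1% of all genes. With experiment 1 fitted alone, whose spread was larger, 1 of the 38 rose, ATP6V0A4, where 0.129% of all genes rose and 0.151% fell, 0.28% in either direction.

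**Figure D1:**
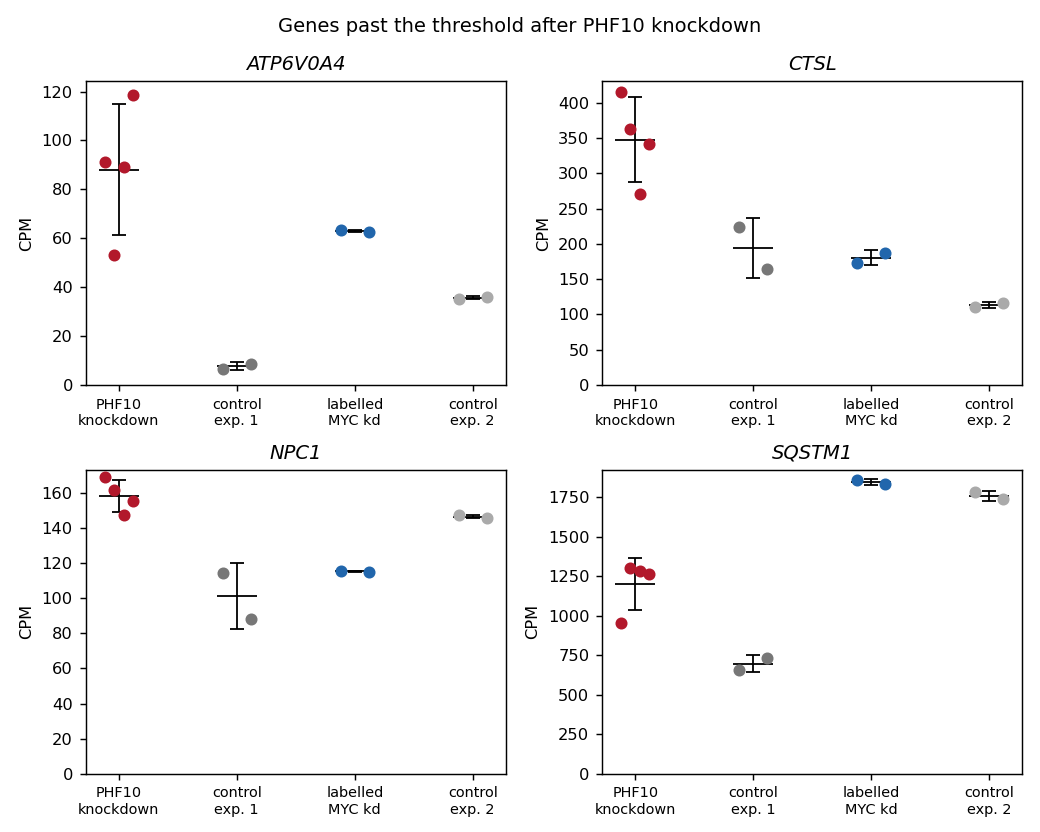
CPM of the 4 genes that rose after PHF10 knockdown, in each of the 10 libraries (points; bars are the mean and SD of a group of 4 or 2 libraries; "labelled MYC kd" is the group labelled MYC knockdown). ATP6V0A4 lies at 53.3 to 119 CPM after PHF10 knockdown against 6.45 and 8.77 CPM in the controls of experiment 1, and SQSTM1 is higher in all 4 libraries of experiment 2 than in any of experiment 1.

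The a subunit of V0 anchors the pump to its membrane and guides the protons. It is made from 4 genes: ATP6V0A1, ATP6V0A2, TCIRG1 (a3, known from osteoclasts) and ATP6V0A4 (a4, known from the acid-secreting intercalated cells of the kidney and from the inner ear). ATP6V0A4 (ENSG00000105929) lies on chromosome 7 from 138706294 to 138799560 on the minus strand of GRCh38. It measured 91.2, 53.3, 89.1 and 119 CPM in replicates 1 to 4 of the PHF10 knockdown, against 6.45 and 8.77 CPM in control replicates 1 and 2. Every knockdown library stood well above both controls, and the lowest of them, replicate 2, was still apart. The log2 change was 3.53 (SE 0.31, 95% interval 2.83 to 4.23, edgeR adjusted p = 0.00132; n = 4 and 2). It was past the threshold in each alternative fit of this comparison and without any 1 library. On the high side of the interferon split it stood at 91.2 and 53.3 CPM after knockdown against 6.45 CPM in the control, and on the low side at 89.1 and 119 CPM against 8.77 CPM. With the interferon level as a covariate its log2 change was 3.47 (adjusted p = 0.000479).

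ATP6V0A4 is shown with its promoter because it held fewer CpG dinucleotides than that of any other listed gene with a matched promoter. The 250 bases before its RefSeq start are at chr7:138798197-138798446 on the minus strand (GRCh38.p14, RefSeq), here in lower case throughout because they hold no CACGTG, the E-box described below. They lie inside the GENCODE 29 gene, which extends to 138799560, so the 2 annotations place the start differently. The CpG counts below rest on 1 RefSeq start per gene.
ATP6V0A4: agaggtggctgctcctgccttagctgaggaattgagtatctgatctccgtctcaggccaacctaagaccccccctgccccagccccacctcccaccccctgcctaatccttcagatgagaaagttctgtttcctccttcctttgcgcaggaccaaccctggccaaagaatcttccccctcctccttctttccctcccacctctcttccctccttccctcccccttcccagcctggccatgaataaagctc
This stretch held 2 CpG dinucleotides. The same window of 29 other listed genes held 13 to 43, with a median of 24, and that of all 27305 promoters in the table a median of 11. Of all promoters, 23.6% held no more CpG than ATP6V0A4. Its GC content, 57.6%, lay inside the range of the other genes, 46.8% to 81.2%, and near the 58.0% median of all promoters. No methylation was measured in these samples.

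None of the other a subunits passed the threshold after PHF10 knockdown. ATP6V0A1 measured 77.2 to 88.2 CPM after PHF10 knockdown and 73.4 and 75.1 CPM in the controls, a log2 change of 0.17 (95% interval −0.06 to 0.39). ATP6V0A2 measured 24.5 to 49.3 CPM and overlapped the 38.7 and 42.9 CPM of the controls, with replicates 2 and 3 below them. TCIRG1 measured 84.1, 107, 76.7 and 66.8 CPM after PHF10 knockdown against 83.0 and 59.8 CPM in the controls (log2 change 0.23, adjusted p = 0.528). Per kilobase of transcript, ATP6V0A4 supplied 31.1%, 19.0%, 31.6% and 39.3% of all a-subunit reads in the PHF10 knockdown libraries, against 3.20% and 5.06% in the controls. The mean share was 30.2% ± 8.4 (SD, n = 4) after knockdown and 4.13% ± 1.3 (SD, n = 2) in the controls. After knockdown the mean level of a4 was 28.1 CPM per kb beside 27.5 for a1, and in the controls it was 2.43 beside 24.5.

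**Figure D2:**
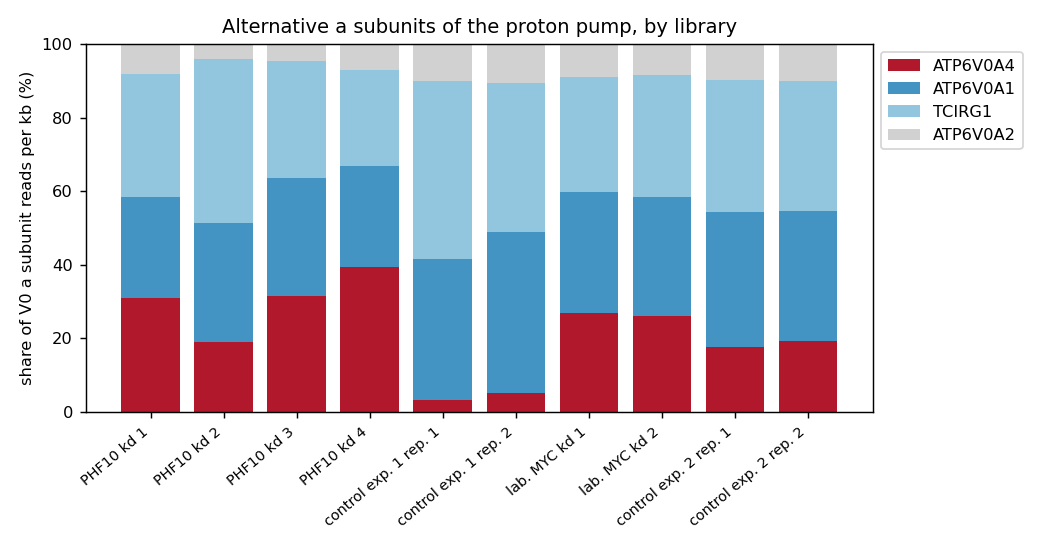
Share of the reads per kilobase from the 4 genes of the V0 a subunit, in each library (stacked bars, percent; kd is knockdown and lab. is labelled). The ATP6V0A4 share is 19.0% to 39.3% after PHF10 knockdown and 3.20% and 5.06% in its controls, and 26.9% and 26.1% in the MYC-labelled libraries against 17.7% and 19.2% in theirs.

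Genes that mark the kidney cell known for a4 were not present at comparable levels. Listed intercalated cell genes (8, among them FOXI1, their master regulator, and the bicarbonate exchanger SLC4A1) summed to 1.59 to 3.76 CPM in the PHF10 knockdown libraries and 2.77 and 3.11 CPM in the controls. FOXI1 and SLC4A1 stayed under 0.1 CPM in all 10 libraries.

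Beyond a4, no gene of the pump passed the threshold. Of the 17 V-ATPase genes 1 rose and 0 fell, with a median log2 change of 0.13, and 3 were higher and 0 lower at an unadjusted p under 0.05. DESeq2 called 3 higher and 0 lower, where it called 11.8% of all genes in either direction. ATP6V0B, a subunit of the proton-carrying ring, measured 148, 204, 189 and 153 CPM after PHF10 knockdown against 116 and 124 CPM in the controls. All 4 knockdown libraries lay above both controls, but the log2 change of 0.53 (SE 0.15) did not pass the threshold (adjusted p = 0.0662), although it did by DESeq2 (0.0119). ATP6V1A, the catalytic subunit that hydrolyses ATP, measured 142, 139, 147 and 144 CPM against 113 and 118 CPM. These groups too did not overlap, with a log2 change of 0.31 (SE 0.09, adjusted p = 0.0783; 0.0013 by DESeq2). ATP6AP1, an accessory protein needed for V0 assembly, measured 147, 259, 219 and 179 CPM after PHF10 knockdown and 159 and 166 CPM in the controls, which the knockdown libraries straddled (log2 change 0.31, adjusted p = 0.389).

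The other 11 V-ATPase genes, among them the stalks and the rest of the V0 sector, had log2 changes of −0.30 to 0.22. ATP6V1C1, a regulatory subunit of V1, measured 82.1 to 86.4 CPM after knockdown and 76.8 and 79.7 CPM in the controls (log2 change 0.11, adjusted p = 0.484). ATP6V1E1, of the peripheral stalk, had the lowest log2 change of the pump, −0.30 (95% interval −0.65 to 0.04). ATP6V0D1, a subunit of V0, was the only gene of the 38 whose knockdown libraries all lay below the controls, with 75.0 to 95.2 CPM against 97.1 and 101 CPM (log2 change −0.24, adjusted p = 0.233). In the other direction 12 of 38 lay wholly above. Over all genes tested, 13.4% lay wholly above and 13.7% wholly below. ATP6V0C, the main ring subunit, was barely counted: it had 6 to 21 reads per library, and 72.1% of its exon bases are shared with other annotated genes on the same strand in GENCODE 29, so its reads may be lost or split.

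**Figure D3:**
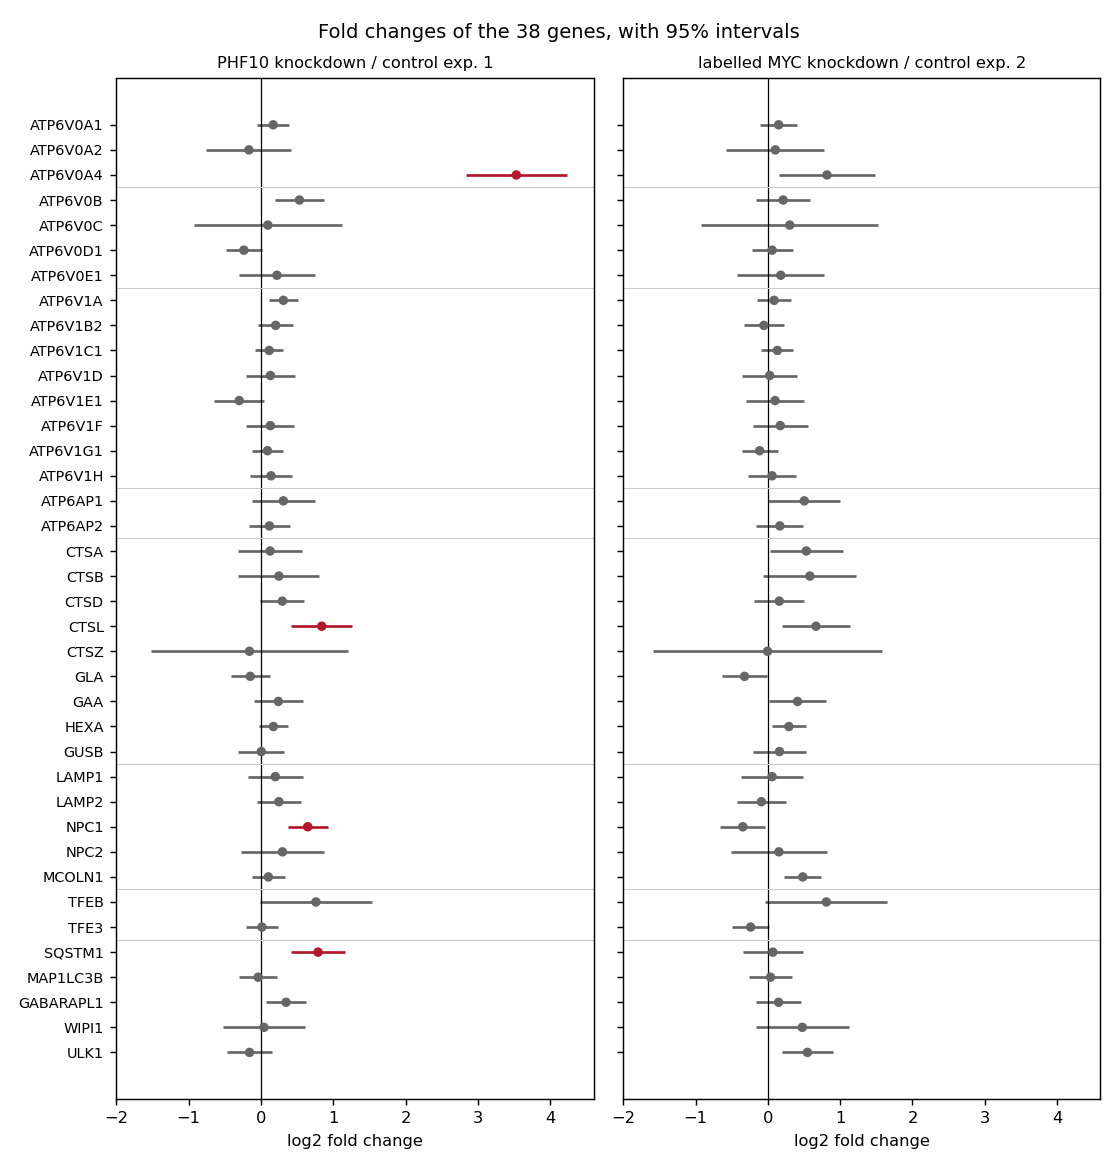
Log2 changes (x axis) with 95% intervals of the 38 genes, grouped by role between the grey lines, after PHF10 knockdown (left) and in the MYC-labelled libraries (right), each against the controls of its experiment. Red marks an adjusted p under 0.05: 4 genes on the left and 0 on the right.

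Among the 9 hydrolases 1 rose and 0 fell after PHF10 knockdown, and the median log2 change was 0.17. At an unadjusted p under 0.05, 1 was higher and 0 lower, and DESeq2 called the same numbers. CTSL (ENSG00000135047, chromosome 9 from 87725519 to 87731393), a cysteine protease with a broad range of substrates, measured 416, 363, 270 and 341 CPM after knockdown against 224 and 164 CPM in the controls. The lowest knockdown library, replicate 3, stood above the higher control. Its log2 change was 0.84 (SE 0.19, adjusted p = 0.0295), and it missed the threshold without control replicate 1 (0.066), without control replicate 2 (0.242) and with experiment 1 fitted alone (0.142). CTSD, the main aspartic protease, measured 134 to 188 CPM against 131 and 130 CPM (log2 change 0.29, 95% interval −0.01 to 0.60), and 41.7% of its exon bases are shared with another annotated gene. HEXA, the alpha subunit of beta-hexosaminidase, measured 89.2 to 96.9 CPM against 82.9 and 85.6 CPM (log2 change 0.17, adjusted p = 0.299). CTSZ, a carboxypeptidase, had the widest spread, with 175, 1079, 815 and 262 CPM in replicates 1 to 4 of the PHF10 knockdown and 594 and 709 CPM in the controls. The controls lay inside the range of the knockdown libraries, and its 95% interval ran from −1.53 to 1.20. The log2 changes of CTSA, CTSB, GLA, GAA and GUSB lay between −0.15 and 0.25.

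In the lysosomal membrane and lipid export group 1 of 5 genes rose. NPC1 (ENSG00000141458, chromosome 18 from 23506184 to 23586898), which passes cholesterol out of the lysosome through its membrane, measured 169, 162, 147 and 155 CPM after PHF10 knockdown against 115 and 88.1 CPM in the controls. All 4 knockdown libraries exceeded both controls. Its log2 change was 0.64 (SE 0.12, adjusted p = 0.017). It missed the threshold without control replicate 2 (0.159) and with experiment 1 fitted alone (0.118), and passed without control replicate 1. Its luminal partner NPC2, which hands cholesterol to NPC1, measured 42.6 to 84.7 CPM against 45.05 and 63.5 CPM and overlapped the controls (log2 change 0.30, adjusted p = 0.546). MCOLN1, the lysosomal calcium channel, measured 27.5, 27.6, 30.2 and 26.9 CPM against 25.7 and 26.6 CPM (log2 change 0.10, adjusted p = 0.602). LAMP1 and LAMP2, the abundant glycoproteins that line the lysosomal membrane, had log2 changes of 0.20 and 0.25, with adjusted p of 0.539 and 0.314.

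Neither transcription factor passed the threshold. TFEB was, per kilobase, the least abundant gene of the 38 after ATP6V0C. It stood at 3.58, 5.35, 4.08 and 2.43 CPM after PHF10 knockdown and 3.02 and 1.56 CPM in the controls. The groups overlapped, and the log2 change of 0.76 had a 95% interval of −0.01 to 1.53 (adjusted p = 0.229). TFE3 was at 73.4 to 83.0 CPM against 75.9 and 79.9 CPM, a log2 change of 0.01 with an interval of −0.21 to 0.23. Their activity depends on where the proteins sit in the cell, which mRNA does not measure.

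Of the 5 autophagy genes 1 rose. SQSTM1 (ENSG00000161011, chromosome 5 from 179806398 to 179838078) measured 957, 1304, 1283 and 1262 CPM after PHF10 knockdown against 657 and 735 CPM in the controls. Replicate 1 was the lowest of the knockdown libraries and still above both controls. The log2 change was 0.79 (SE 0.17, adjusted p = 0.0254). It missed the threshold without control replicate 1 (0.163) or 2 (0.12) and with experiment 1 fitted alone (0.137). GABARAPL1, an Atg8-family protein of the autophagosome membrane, lay at 65.6 to 81.6 CPM after knockdown and 64.6 and 53.6 CPM in the controls (log2 change 0.35, adjusted p = 0.13). MAP1LC3B (LC3B), of the same family, had a log2 change of −0.04 (95% interval −0.30 to 0.22). Both have near-identical copies in the genome, so their counts are uncertain where reads map to both. The kinase ULK1, which starts autophagy, measured 61.4, 47.3, 47.0 and 61.2 CPM against 60.3 and 60.8 CPM (log2 change −0.16, adjusted p = 0.535). WIPI1, which binds the phosphoinositide of the forming autophagosome, overlapped its controls (log2 change 0.04, adjusted p = 0.948).

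A wider list of 132 genes of the same pathways, of which 129 passed the filter, was read beside the 38. After PHF10 knockdown 6 of these rose and 1 fell, 5.43% in all against the 6.34% of all genes, with a median log2 change of 0.06. DESeq2 called 17 higher and 1 lower, 18 of 129 beside its 11.8% of all genes. The sialic acid exporter SLC17A5 rose by 0.88 (SE 0.14, adjusted p = 0.00819) and the sialidase NEU1 by 0.82 (SE 0.16, 0.0189). ATG4A, a protease that processes Atg8 proteins, rose by 1.12 (SE 0.16, 0.00572), and the autophagy receptor TAX1BP1 by 0.68 (SE 0.11, 0.00813). The protease CTSC rose by 0.54 (SE 0.12, 0.0288). FLCN, which takes part in the control of TFEB and TFE3 by mTORC1, rose by 0.50 (SE 0.12, 0.0336). CTSV, a close relative of CTSL, fell by 1.53 (SE 0.26, 0.0116), at 0.608 to 0.741 CPM after knockdown against 2.04 and 1.77 CPM in the controls. With experiment 1 fitted alone or without control replicate 2, 0 of the 129 passed by edgeR, and without control replicate 1 only ATG4A did. In these fits 0.28%, 1.1% and 1.08% of all genes passed, in this order.

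The MYC-labelled libraries were compared with the controls of experiment 2 to ask how the same genes stand when MYC is targeted. None of the 38 passed the threshold of the pooled fit: 0 rose and 0 fell by edgeR, where 0.282% of all genes rose and 0.211% fell, 0.493% in either direction. At an unadjusted p under 0.05, 8 of the 38 were higher and 2 lower, as were 6.62% and 6.58% of all genes, and DESeq2 called 1 higher, MCOLN1, and 0 lower, where it called 3.91% of all genes. The median log2 change was 0.15, against −0.01 over all genes tested. The spread of the pooled fit, 21.44%, lay closer to that of experiment 1 than to that of experiment 2. With experiment 2 fitted alone, 22 of 38 rose and 3 fell, where 21.9% of all genes rose and 22.6% fell, 44.5% in either direction. That fit rests on 2 libraries a group whose spread was far smaller, and the values below give its adjusted p beside the pooled one. Markers of other cells moved with these groups: those of epithelium summed to 3.58 and 4.53 CPM in the MYC-labelled libraries against 13.5 and 13.2 CPM in their controls, and those of endothelium to 30.5 and 32.1 CPM against 56.4 and 50.8 CPM. KRT14 was lower by −1.77 on the log2 scale (adjusted p = 0.0343), and with experiment 2 alone KRT5, KRT14, PECAM1, VWF and KDR all passed as lower. In that fit the leukocyte and fibroblast markers went both ways: CSF1R and LUM passed as lower, and CD14 and PDGFRA as higher. Their part in the results was not tested.

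Within the pump, ATP6V0A4 measured 63.3 and 62.7 CPM in the MYC-labelled libraries and 35.4 and 36.2 CPM in their controls. The pairs of libraries did not overlap, and the log2 change was 0.82 (SE 0.29, adjusted p = 0.266; 3.96e-18 with experiment 2 alone). ATP6V0B measured 148 and 159 CPM against 138 and 127 CPM (log2 change 0.21, adjusted p = 0.664; 0.000116 alone). ATP6V1C1 measured 107 CPM in both labelled libraries against 99.1 and 96.0 CPM (log2 change 0.13, 0.643; 0.00837 alone). ATP6AP1 measured 148 and 151 CPM against 108 and 103 CPM (log2 change 0.50, 0.37; 4.43e-14 alone). With experiment 2 alone 21.9% of all genes rose and 22.6% fell. In that fit 9 of the 17 V-ATPase genes rose and 0 fell, with a median log2 change of 0.14. ATP6V0A4 and ATP6AP1 stood out among them by size, since the other 7 had log2 changes of 0.11 to 0.22.

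The hydrolases had a larger median, 0.29 in the pooled fit and 0.30 with experiment 2 alone, where 7 of 9 rose and 1 fell. CTSL measured 173 and 188 CPM in the MYC-labelled libraries and 111 and 116 CPM in their controls (log2 change 0.67, SE 0.21, adjusted p = 0.196; 1.73e-17 alone). CTSA, CTSB and GAA had log2 changes of 0.53, 0.58 and 0.41. GLA, the alpha-galactosidase, went the other way, with 24.0 and 24.2 CPM against 30.6 and 29.8 CPM (log2 change −0.32, adjusted p = 0.369; 0.000128 alone). CTSZ, which varied most in experiment 1, measured 216 and 224 CPM against 216 and 226 CPM. In the wider list 55 of 129 rose and 19 fell with experiment 2 alone, where 21.9% of all genes rose and 22.6% fell. CTSF, another cysteine protease, was the 1 gene of the 129 past the threshold of the pooled fit, with 76.3 and 71.4 CPM against 47.2 and 44.3 CPM (log2 change 0.69, SE 0.12, adjusted p = 0.0453). Its adjusted p was 0.355 to 0.492 with any 1 of the 4 libraries left out, fits in which 0 of all genes passed.

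Among the remaining genes, MCOLN1 measured 32.2 and 34.5 CPM in the MYC-labelled libraries and 23.7 and 24.0 CPM in their controls (log2 change 0.48, SE 0.11, adjusted p = 0.105; 0.00486 by DESeq2). NPC1 measured 116 and 115 CPM against 147 and 146 CPM, so both labelled libraries were below both controls (log2 change −0.35, adjusted p = 0.324; 7.84e-09 alone). TFEB measured 4.30 and 3.95 CPM against 2.34 and 2.37 CPM (log2 change 0.81, adjusted p = 0.399; 8.65e-05 alone). TFE3 was lower, with 96.5 and 105 CPM against 119 CPM in both controls (log2 change −0.24, adjusted p = 0.406; 5.29e-05 alone). ULK1 measured 94.8 and 99.8 CPM against 69.1 and 64.0 CPM (log2 change 0.55, SE 0.16, adjusted p = 0.163; 1.08e-13 alone). SQSTM1 stood at 1858 and 1832 CPM against 1781 and 1737 CPM, a log2 change of 0.07 with a 95% interval of −0.35 to 0.49.

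The difference between the responses was tested in the same fit, as the PHF10 fold change minus that of the MYC-labelled libraries. Of the 38 genes 1 passed, ATP6V0A4, whose response was 2.71 larger on the log2 scale after PHF10 knockdown (SE 0.41, adjusted p = 0.0369), and 0 had a smaller response. Over all genes tested, 0.26% had a larger and 0.125% a smaller response. The call was lost without PHF10 knockdown replicate 3 (0.0505), without control replicate 1 (0.116) or 2 (0.0957) of experiment 1 and without any library of experiment 2 (0.192 to 0.248), while the value stayed between 2.51 and 2.95. Without a library of experiment 2, 0.00516% to 0.0206% of all genes passed. NPC1 had a difference of 0.99 (SE 0.19, adjusted p = 0.0657; 0.000193 by DESeq2) and SQSTM1 one of 0.72 (SE 0.25, adjusted p = 0.276; 0.0404 by DESeq2). ULK1 had −0.71 (adjusted p = 0.194) and MCOLN1 −0.38 (0.356). These 5 genes, 3 higher and 2 lower, were the ones at an unadjusted p under 0.05, as were 6.18% and 5.51% of all genes. CTSL had a difference of 0.17 with a 95% interval of −0.44 to 0.79. In the wider list 0 of 129 passed by edgeR (7 higher and 3 lower at an unadjusted p under 0.05), and DESeq2 called 1 in each direction, beside 3.43% of all genes.

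**Figure D4:**
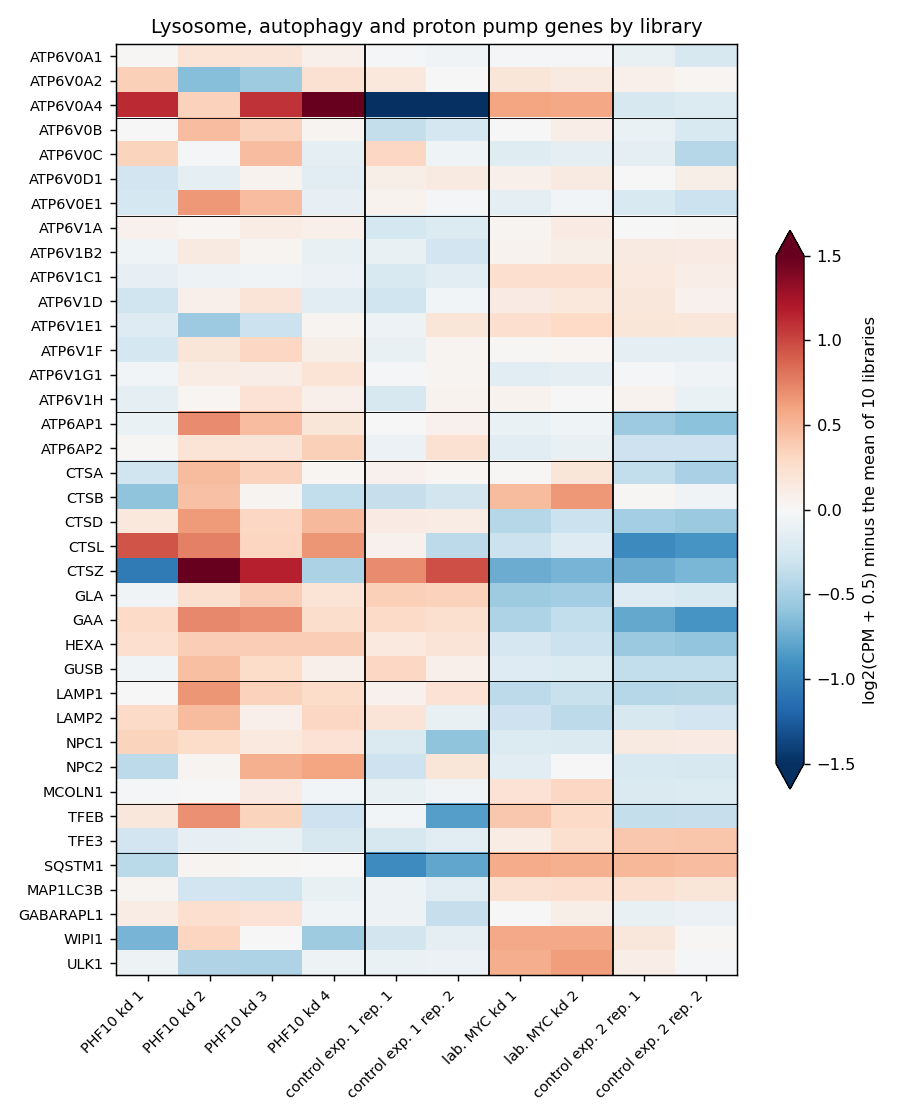
Level of each of the 38 genes in each of the 10 libraries, as log2(CPM + 0.5) minus the gene's mean over the libraries (colour, cut at −1.5 and 1.5; vertical lines part the groups and horizontal ones the roles). ATP6V0A4 is lowest in both controls of experiment 1, the hydrolases other than CTSB are lower in the controls of experiment 2 than in those of experiment 1, and CTSZ varies most among the PHF10 knockdown libraries.

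The controls of experiment 2 were set against those of experiment 1 to place the levels of the 4 groups. Experiment, and whatever differed with it, cannot be told apart from the controls here, and this comparison shares its libraries with those above. The groups differed in 10 of the 38 genes, 4 higher and 6 lower in experiment 2, where 8.05% of all genes were higher and 6.6% lower, 14.6% in either direction. At an unadjusted p under 0.05, 8 of the 38 were higher and 9 lower, as were 15.6% and 14.7% of all genes. All 6 lower ones were hydrolases, 6 of 9, whose median log2 difference was −0.65. Of 35 other hydrolases and activators in the wider list, 1 was higher and 5 lower, with a median log2 difference of −0.39. These were 17.1% of the 35, beside the 14.6% of all genes. GAA, which breaks down glycogen, measured 84.7 and 78.2 CPM in the controls of experiment 2 and 177 and 171 CPM in those of experiment 1 (log2 difference −1.09, SE 0.18, adjusted p = 0.00442). HEXA was lower by a log2 difference of −0.75 (adjusted p = 0.00209), CTSL by −0.77 (0.0365), CTSD by −0.65 (0.0233), GLA by −0.56 (0.0283) and GUSB by −0.56 (0.048). With 1 control library left out, the median of the 9 lay between −0.67 and −0.55. With the interferon level as a covariate 3 of the 9 passed, all lower, where 14.9% of all genes passed in either direction. In that fit CTSL had −0.36 in place of −0.77.

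**Figure D5:**
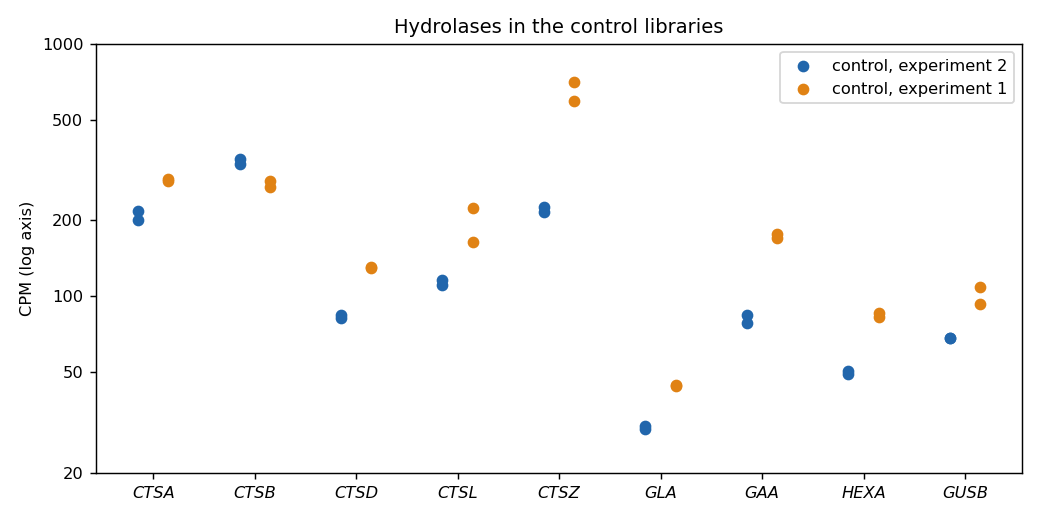
CPM of the 9 hydrolases (log axis) in the 2 control libraries of experiment 2 (blue) and the 2 of experiment 1 (orange). Both blue points lie below both orange points for 8 genes, and above them for CTSB. Over all genes tested, the controls of experiment 2 lay wholly below those of experiment 1 for 33.5% and wholly above for 34.5%.

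Of the 17 V-ATPase genes 1 passed the threshold between the controls, beside the 14.6% of all genes. It was ATP6V0A4, at 35.4 and 36.2 CPM in the controls of experiment 2 against 6.45 and 8.77 CPM in those of experiment 1 (log2 difference 2.23, SE 0.32, adjusted p = 0.00235). Its levels over the 4 groups were thus highest after PHF10 knockdown, at 88.1 ± 27 CPM (SD, n = 4), then in the MYC-labelled libraries, at 63.0 ± 0.43 CPM, the controls of experiment 2, at 35.8 ± 0.56 CPM, and the controls of experiment 1, at 7.61 ± 1.6 CPM (SD, n = 2 each). The first pair of neighbours in this order overlapped, because PHF10 knockdown replicate 2 stood at 53.3 CPM. SQSTM1 had another order: 1845 ± 18 CPM in the MYC-labelled libraries, 1759 ± 31 CPM in their controls, 1202 ± 164 CPM after PHF10 knockdown and 696 ± 55 CPM in the controls of experiment 1. Its log2 difference between the controls was 1.34 (adjusted p = 0.00242). NPC1 and TFE3 were higher in the controls of experiment 2 by 0.53 and 0.61 (adjusted p = 0.0326 and 0.00818).

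Compared per kilobase of transcript, SQSTM1 was the most abundant of the 38 in the MYC-labelled libraries and in their controls, with 618 and 589 CPM per kb. After PHF10 knockdown its mean of 402 CPM per kb stood beside 389.7 for CTSZ, a difference well within the spread of CTSZ over those libraries (175 to 1079 CPM). In the controls of experiment 1 CTSZ came first, with 436 CPM per kb against 233 for SQSTM1. After PHF10 knockdown, V-ATPase genes other than ATP6V0C spanned 5.55 CPM per kb for ATP6V0A2 to 134 for ATP6V0B. Subunits that a pump holds in single copy differed widely in mRNA, for example ATP6V1F at 121 and ATP6V1H at 32.2 CPM per kb after PHF10 knockdown and 110 and 29.3 in the controls of experiment 1.

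Sequences before the gene starts were read for the E-box CACGTG. It is the core of the element through which TFEB and TFE3 bind lysosomal genes and also a site of MYC with its partner MAX, so it is shared by the factor targeted here and by the regulators of the list. RefSeq promoters (250 bases before to 50 after the start, GRCh38.p14) were matched for 30 of the 38 genes. CACGTG, which reads the same on both strands, was present in 8 of the 30, against 7.44% of all 27305 promoters. Its extended form TCACGTGA, also a palindrome and always counted within CACGTG, was present in 6 of 30, against 1.04% of all. The 6 are printed 5′ to 3′ on the strand of the gene, 60 bases each with 1 E-box in capitals, at chr16:67481184-67481243 (minus), chr9:114587684-114587743 (plus), chr20:45891275-45891334 (plus), chr17:80101478-80101537 (plus), chr13:113297179-113297238 (plus) and chr19:7522556-7522615 (plus) in this order.
ATP6V0D1: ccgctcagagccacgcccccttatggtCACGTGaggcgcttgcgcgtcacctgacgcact
ATP6V1G1: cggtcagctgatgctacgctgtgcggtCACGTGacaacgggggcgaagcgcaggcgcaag
CTSA: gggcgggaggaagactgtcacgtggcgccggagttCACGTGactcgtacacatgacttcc
GAA: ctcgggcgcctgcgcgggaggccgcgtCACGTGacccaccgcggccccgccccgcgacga
LAMP1: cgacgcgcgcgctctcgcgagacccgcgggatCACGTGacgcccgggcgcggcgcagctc
MCOLN1: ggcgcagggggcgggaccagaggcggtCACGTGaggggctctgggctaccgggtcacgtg
The printed E-box begins 59, 58, 25, 76, 28 and 41 bases before the start, in the same order, and LAMP1 held 6 in its window. ATP6V0B and CTSD held CACGTG without the flanking bases. After PHF10 knockdown 0 of these 8 genes passed by edgeR, 1 was higher and 0 lower at an unadjusted p under 0.05, and DESeq2 called 1, ATP6V0B. In the MYC-labelled libraries the pooled fit called 0 of all 38, so it cannot part these 8 from the rest, and DESeq2 called MCOLN1. With experiment 2 alone 5 of the 8 rose and 0 fell, and of the 22 without CACGTG 13 rose and 3 fell. In that fit 21.9% of all genes rose and 22.6% fell, and the 8 were not tested against the 22. The 4 genes that rose after PHF10 knockdown had no CACGTG in this window. A match is a run of letters and not a measured binding site.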

How the data were processed

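RNA of 10 libraries was poly(A)-selected, made into directional libraries and sequenced as single reads on a NovaSeq, per the labels' protocols. The authors trimmed reads with cutadapt and counted them per gene with STAR, and the build named is GRCh38.p13 (hg38), all per the submitters' processing notes. Tool versions and annotation were not given in the sources used here. Each deposited file holds raw counts of reads for 60623 Ensembl IDs in 1 unstranded and 2 stranded columns. The column for the strand opposite to the read was used, since the same-strand column held only 5.26% to 5.55% of stranded gene reads. Summary lines, 19.1% to 23.6% of a library, stayed out of library sizes. Reads at several places are not in gene counts.

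The fit used edgeR 4.0.16 (R 4.3.3) with robust quasi-likelihood with TMM factors and filterByExpr, with 4 group means over all 10 libraries (6 residual degrees of freedom), because 3 groups have 2 libraries. P-values were adjusted over 18450 genes, and the scripts were tested on simulated data. CPM are counts over TMM-scaled library sizes. Lengths and coordinates are from GENCODE 29, promoters from RefSeq. Alternatives were DESeq2 1.42.0, RLE factors, no filter, a stricter filter (1 CPM in 4 libraries), the unstranded column, the interferon level as a covariate, the replicate number as a block, each experiment alone and each library left out. The 38 genes, the wider list and the marker lists were chosen with earlier results of these data known, so no p is adjusted over a list. Values by library were given for ATP6V0A4, for genes past the threshold and for the gene of smallest p in each role. From the wider list genes past the threshold after either knockdown were named. Others are examples chosen after their values were seen.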

Additional observations from a re-analysis of the deposited data

Results flagged for a closer look

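Among the 4 PHF10 knockdown libraries, replicate 1 lay below the others, which lay close together, for HEXA and for SQSTM1 on the log2 CPM scale. The gap to the next library was 0.959 of the group's whole range for HEXA (89.2 CPM, against 96.6 to 96.9 CPM in the other libraries) and 0.894 for SQSTM1 (957 CPM, against 1262 to 1304 CPM), above the critical value of Dixon's test for 4 samples. All 38 genes were checked, and chance alone gives such a gap in about 1 of 20 groups, so chance may give some among them. For HEXA the whole range was small, and replicate 1 stayed above both controls (82.9 and 85.6 CPM). Without replicate 1, SQSTM1 was still past the threshold after PHF10 knockdown.

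ATP6V0A4 responded differently in the 2 experiments in the pooled fit: the PHF10 response minus that of the MYC-labelled libraries was 2.71 on the log2 scale (edgeR adjusted p = 0.0369). The call was lost without PHF10 knockdown replicate 3, without either control of experiment 1 and without any 1 library of experiment 2. It was also lost with the replicate number as a block. ATP6V0A4 was higher in 4 of 4 PHF10 knockdown libraries than in either control, and in 2 of 2 MYC-labelled libraries than in either of theirs. Its controls stood at 35.4 and 36.2 CPM in experiment 2 and at 6.45 and 8.77 CPM in experiment 1, so the experiments started from different levels, and their part in the difference was not tested.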

How the results depend on the processing

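After PHF10 knockdown 4 genes of the 38 rose in the pooled fit, 1 with experiment 1 fitted alone and 1 to 5 with 1 library left out; 0 fell in any of these. Of all genes 6.34%, 0.28% and 1.08% to 7.52% passed in these fits, the lowest 2 of the last range (1.08% and 1.1%) without a control. In the MYC-labelled libraries 0 rose in the pooled fit, 1 by DESeq2, 2 without a filter (ATP6V0A4 and CTSL), 2 with the interferon level as a covariate (CTSL and MCOLN1), 22 with experiment 2 fitted alone, where 3 fell, and 0 with any 1 library left out. Of all genes 0.493% passed in the pooled fit, 3.91%, 2.31% and 3.22% under the first 3 of these alternatives, 44.5% with experiment 2 alone and 0 with any 1 library left out. For the difference of responses the 1 gene became 3 by DESeq2, 2 without a filter and 2 with the covariate, where the share of all genes became 3.43%, 2.33% and 2.84% in place of 0.385%. It became 0 with the replicate block (0.211% of all genes), and 0 to 1 with 1 library left out (0.00516% to 0.759%). Between the controls the 4 higher and 6 lower genes became 2 to 3 and 1 to 3 with 1 library left out (2.86% to 6.9% of all genes in place of 14.6%), and the median of −0.06 became −0.017 without a filter and −0.14 with the covariate. The CTSL difference of responses reversed to −0.035 without control replicate 2 of experiment 1, within −0.035 to 0.41 over the libraries left out. Without division by length the ATP6V0A4 share in the MYC-labelled libraries was 25.6% in place of 26.5%. The causes were not tested. Deviations of same-numbered libraries from their group mean correlated at 0.484 and −0.297 in experiment 1 and −0.0309 in experiment 2. In a group of 2 libraries the deviations mirror each other, so these values cannot tell whether the replicate numbers pair the libraries. With the number as a block SQSTM1 missed the threshold after PHF10 knockdown (0.0787), and so did ATP6V0A4 in the difference (2.41, adjusted p = 0.0667).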

Other observations

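The PHF10 knockdown libraries were not alike in these genes. Replicates 2 and 3 both stood above replicates 1 and 4 in 22 of the 38 (57.9%), against 26.5% of all genes tested. CTSZ showed it most, with 1079 and 815 CPM in replicates 2 and 3 and 175 and 262 CPM in replicates 1 and 4. CTSB, ATP6AP1 and WIPI1 had the same order. ATP6V0A4 and ULK1 were among the 5 with the opposite order, replicates 1 and 4 above (13.2% of the 38, against 26.1% of all genes tested). The interferon genes, high in replicates 1 and 2, split the libraries another way. CTSL and NPC1, 2 of the 38 (5.26%, against 18.6% of all genes tested), had replicates 1 and 2 above. ATP6V0A4 and SQSTM1 did not. Control replicate 1, where the interferon genes were also high, exceeded control replicate 2 for both CTSL (224 and 164 CPM) and NPC1 (115 and 88.1 CPM). These orders were noticed after the values were seen and have no test.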
